A study of Mus musculus with 4 samples.

Results

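The 40 genes described here make or recycle the cell's defences against oxidants, or make the oxidants of phagocytes, and were measured in Meis1-deficient and control LSK cells. LSK cells, sorted from bone marrow as lacking lineage markers and carrying Sca-1 and c-Kit, include the hematopoietic stem cells (HSC) and their earliest progeny. The genes were chosen by symbol. All 40 symbols were found among the 28095 gene names of the array, on 65 of its 41174 probes, and each gene was represented by its brightest probe, the one with the highest mean log2 signal over the 4 arrays. A probe was tested where both arrays of either genotype were well above background, as held for 38 of the genes and for 22007 probes in all. The 2 others, Sod3, the extracellular superoxide dismutase, and Gpx7, a glutathione peroxidase of the secretory pathway, were not well above background on any array.

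The Meis1-KO samples came from C57BL/6J mice carrying 2 floxed Meis1 alleles and the Mx1-Cre transgene, and the Meis1-WT samples from Meis1fl/fl mice without Cre. Mice were 4 to 8 weeks old, and the sample labels give 4 intraperitoneal poly(I:C) doses of 1.5 ug/g for both genotypes, whereas the design text calls the controls sham-treated. Cre under the Mx1 promoter is switched on by interferon, and not in blood cells alone. Each of the 2 arrays per genotype was hybridized with RNA from 1 pool of mice, so that the spread between arrays is a spread between pools. Replicate 1 of both genotypes shared slide 1 and replicate 2 shared slide 2.

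Superoxide dismutases turn superoxide into hydrogen peroxide, which catalase, the glutathione peroxidases and the peroxiredoxins then reduce. Glutathione and thioredoxin supply the electrons and are themselves recycled by reductases that draw on NADPH. Many of these genes are induced by the transcription factor Nrf2, which Keap1 holds back until the cell is oxidized, whereas the phagocyte NADPH oxidase makes superoxide on purpose. HSC are known to keep oxidant levels low, and excess oxidants are known to drive them out of quiescence.

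The probes were 60 bases long. For 5 genes described below at more than 1 probe, 30 bases of selected probes are shown 5′ to 3′ as the array files give them, with positions of the whole probe on mm9. A span longer than 60 bases is that of a probe that crosses a gap between aligned blocks. For Cybb, Gstm1 and Srxn1 these are all their probes, and for Sod1 and Txnrd2 the brightest and 1 other. For Srxn1 the 13 bases that 2 overlapping probes share are in capitals.

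Cybb probe A_51_P330331, chrX:9019758-9021685, minus strand: aaactcaaaaagatctacttctactggctg
Cybb probe A_52_P444628, chrX:9014314-9014373, minus strand: tccagtctgtaagctgaaaaagaagaacac
Gstm1 probe A_52_P415215, chr3:107815564-107815623, minus strand: actggagtaacaagtaggcccttgctacac
Gstm1 probe A_51_P479311, chr3:107815180-107815239, minus strand: gcctgttcctggtggagtagcctccccagg
Srxn1 probe A_52_P593200, chr2:151935185-151935244, plus strand: ctttatgatagcactatATGAACTATGTAC
Srxn1 probe A_51_P330125, chr2:151935232-151935291, plus strand: ATGAACTATGTACtaggaagtaaaggaaaa
Srxn1 probe A_52_P297032, chr2:151936919-151936978, plus strand: aaagagactagggagagaaagcacattagc
Sod1 probe A_51_P367381, chr16:90226497-90226556, plus strand: cagtaaacattccctgtgtggtctgagtct
Sod1 probe A_52_P3581, chr16:90224181-90224240, plus strand: ccttcttaaaagccaaggtctttaaatgtg
Txnrd2 probe A_52_P394561, chr16:18437817-18437876, plus strand: agcttttccacccggcctcctctttgatcc
Txnrd2 probe A_51_P460181, chr16:18472333-18472936, plus strand: ttacagcaatgttcccacaactgtctttac

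Of the 65 probes, 58 carried an accession that RefSeq assigns to the same gene symbol. The other 7 carried accessions of other sequence sets, among them the Sod1 probe A_52_P3581, whose source is a Sod1 cDNA annotated with an apparent retained intron, and the brightest Txnrd2 probe, A_52_P394561. Only the brightest Sod1 probe shared an exact run of 20 bases with a probe of another name. Probes of different genes differ in how well they bind, so expression levels are compared between arrays and not between genes, and where probes are ranked or summed by signal this is a statement on array signal alone.

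Signals were taken on the log2 scale relative to each array's 75th percentile. The slides differed in more than genotype. Both slide 1 pools had Y-linked transcripts well above background and an Xist signal of -3.75 (Meis1-KO) and -5.78 (Meis1-WT), and both slide 2 pools had the reverse, with Xist at 5.31 and 5.32, so slide, sex and pool cannot be told apart. Between 49.2% and 57.4% of spots were well above background, fewest on Meis1-KO array 2. All 10 LSK markers, such as Kit, Ly6a and Cd34, were well above background on all 4 arrays. The brighter Meis1 probe read 0.25 and 0.22 on the Meis1-KO arrays against 1.02 and 1.45 on the Meis1-WT arrays, lower on both slides. Whether either Meis1 probe lies in the deleted part was not analysed here, and in RNA from sorted pools fewer cells of a type cannot be told apart from less RNA per cell.

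No antioxidant or redox gene met the study's criteria, a change of over 2-fold at a p below 0.01 before adjustment. The genotypes were compared with limma across all 22007 tested probes, of which 0.600% met the criteria lower and 0.136% higher in Meis1-KO. Of the 38 tested genes 0 met them in either direction, 0 had an unadjusted p under 0.05 (background 2.81%), and the smallest Benjamini-Hochberg adjusted p was 0.983. With the slide as a block, 1.40% of all probes met the criteria lower and 0.591% higher, again 0 of the 38 genes did, and 1 gene, Cybb, had an unadjusted p under 0.05 (background 6.07%). With 2 arrays per genotype the limits were wide. The standard error of the log2 difference ran from 0.42 to 0.75 among the 38 genes, the narrowest 95% interval reached 1.02 to either side on the log2 scale, and all 38 intervals included 0. A difference under 2-fold in a single gene was therefore not detectable in this design, in which the smallest two-sided p of an exact permutation test is 0.333.

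The 2 slides gave different pictures of the same genes. On slide 1 the Meis1-KO and Meis1-WT arrays were close: the median log2 difference over the 38 genes was -0.10, against 0.025 over all tested probes, and 24 genes lay within 0.2 of no difference. On slide 2 the Meis1-KO array read higher for 33 of the 38 genes, with a median of 0.62 against 0.13 over all probes and 0.21 over all 14729 tested symbols at their brightest probe. Averaged over both slides, the median was 0.28 against 0.082 over all probes and 0.13 over all symbols at their brightest probe. It was -0.11 without Meis1-KO array 2 and 0.62 without Meis1-KO array 1. Directions below are those at the 75th percentile scaling, and they were compared with median, quantile, cyclic loess and no scaling, 5 ways in all.

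On slide 2, 11 genes read more than 2-fold higher in Meis1-KO (background 13.8% of tested probes), and on slide 1 none did (background 3.05%). Those 11 were Gpx1, Gpx3, Gpx4, Prdx1, Prdx4, Prdx5, Sod1, Txn1, Glrx, Nqo1 and Mgst1. The 13.8% covers tested probes of any brightness, and the share was larger among the brightest probes, as given below. Lower by more than 2-fold were Cybb on slide 1 (background 3.64%), and Cybb and Gstm1 on slide 2 (background 16.2%). The most frequent pattern, lower on slide 1 and higher on slide 2, was that of 22 genes (background 25.7%). Markers of other cell types differed between the arrays too. The summed linear signal of 11 B lineage and plasma cell markers was 16.6 and 33.2 in Meis1-KO and 43.7 and 20.4 in Meis1-WT, lower on slide 1 and higher on slide 2, with 5 of 11 well above background on all 4 arrays and Pax5 and Igll1 on none. Of the 6 tested, 4 had that pattern. The sums of 7 megakaryocyte markers, 6 of them well above background on all 4 arrays, were 10.2 and 13.0 against 10.7 and 36.7. Pf4 made up 58.4% of this sum on Meis1-KO array 2. Without Pf4 the other 6 were 6.61 and 5.43 against 4.6 and 7.83, higher in Meis1-KO on slide 1 and lower on slide 2. The sums of 7 T and NK markers were 4.44 and 8.55 against 5.23 and 4.72. Of the 7, 2 were well above background on all 4 arrays and Cd3e and Cd3g on none. Nkg7 alone made up 90.8% of the T and NK sum on Meis1-KO array 2. Without Nkg7 the other 6 were 0.404 and 0.784 against 0.966 and 1.06, lower in Meis1-KO on both slides. The part of these cell types in the values of the 38 genes was not tested.

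Fewer genes had the same direction on both slides. Higher on both were 11 genes (background 30.3%) and lower on both were 5, namely Cybb, Gstm1, Hmox1, Txnrd1 and Gclm (background 21.0%). Past 1.5-fold on both slides, Cybb and Gstm1 were lower (background 3.67%) and 0 genes were higher (background 2.84%). The arrays of the 2 genotypes did not overlap for 8 genes that were higher in Meis1-KO (background 16.0%) and for 1 that was lower, Hmox1 (background 10.9%). The 8 were Cat, Sod1, Prdx5, Txnrd2, G6pdx, Nfe2l2, Keap1 and Hmox2.

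**Figure D1:**
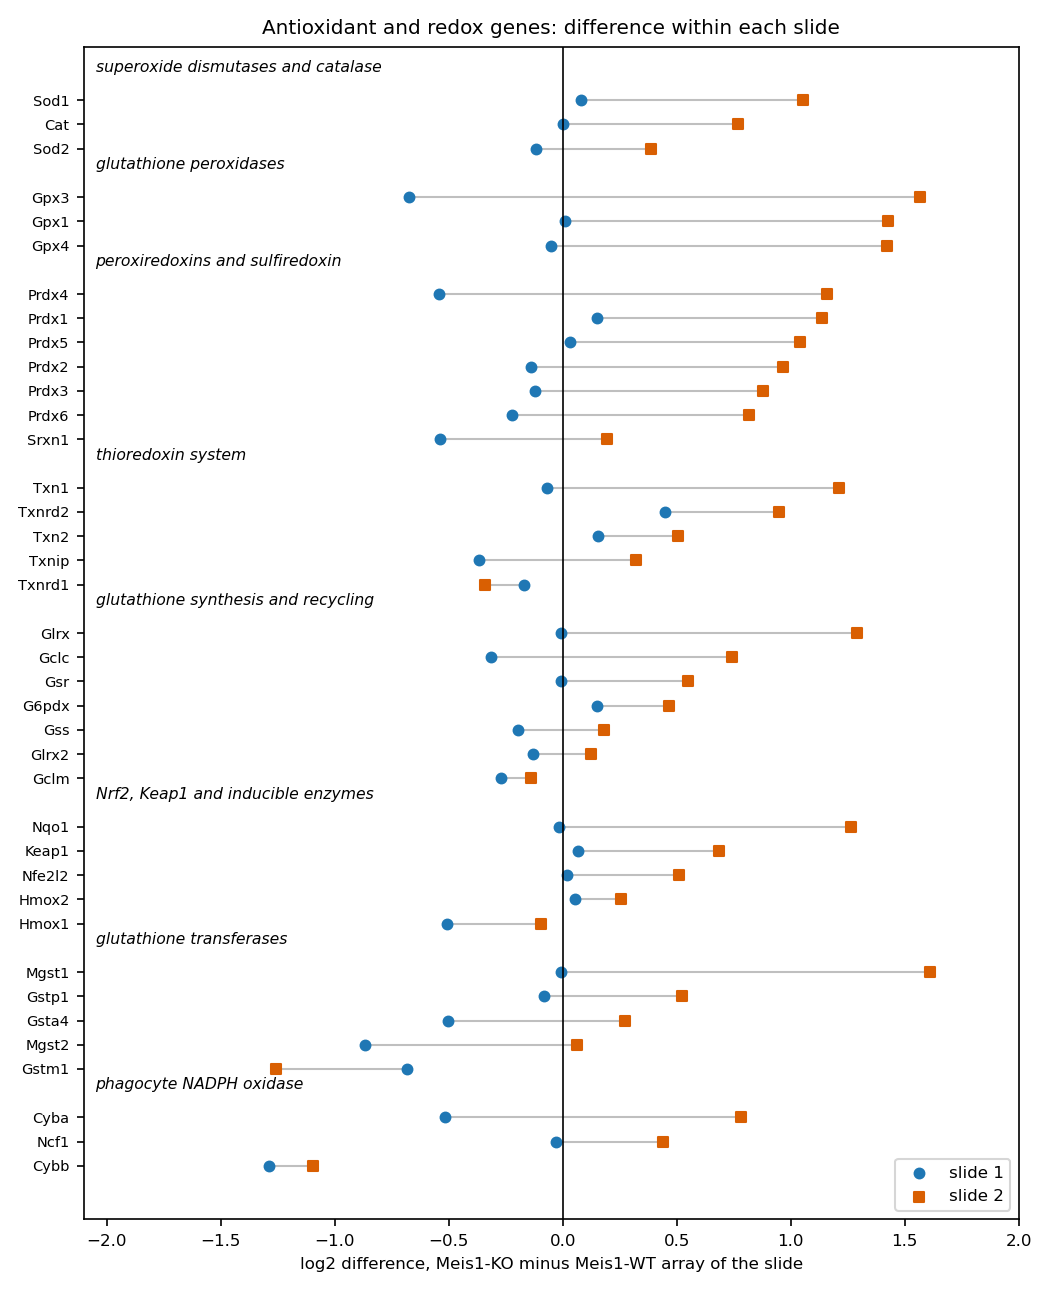
Log2 difference between the Meis1-KO and the Meis1-WT array of slide 1 (circles) and of slide 2 (squares) for the 38 tested genes, grouped by role, with a line joining the 2 differences of a gene. Most circles lie near 0 and most squares to the right of it, while Cybb and Gstm1 lie to the left on both slides.

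The slide 2 difference varied with brightness across the whole array, and most of these genes are bright. All tested probes were cut into 10 equal groups by their mean signal. From the dimmest to the brightest group, the median difference on slide 2 went from -0.49 to 0.62, whereas on slide 1 it stayed between -0.023 and 0.11. Of the 38 genes, 14 were in the brightest group, and there their median was 0.89 on slide 2, beside 0.62 for all probes of that group, and -0.061 on slide 1, beside -0.023. In that group 24.3% of all probes read more than 2-fold higher in Meis1-KO on slide 2, against 10.2% to 16.7% in the other groups. Of the genes named above as more than 2-fold higher on slide 2, Gpx1, Gpx4, Prdx5, Sod1, Txn1 and Glrx were in the brightest group. Meis1-KO array 2 was also the dimmest array, with a 75th percentile signal of 90.1 against 147 to 154 on the other 3. The part of brightness in the slide 2 differences of single genes was not tested.

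**Figure D2:**
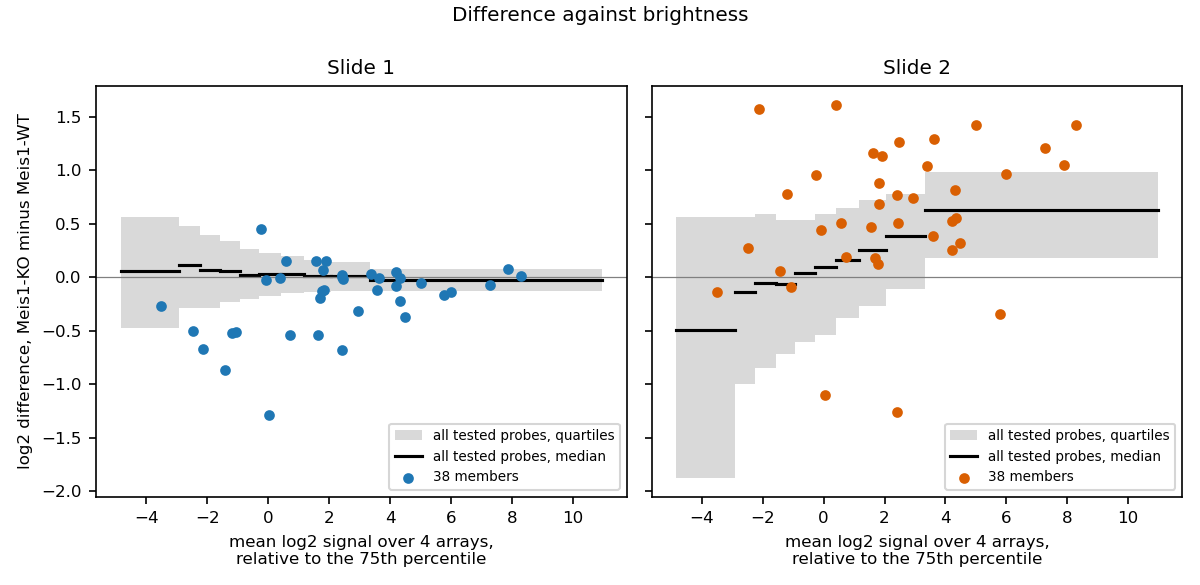
Log2 difference Meis1-KO minus Meis1-WT on each slide against the mean log2 signal over 4 arrays. Grey boxes and black lines give the quartiles and median of all tested probes in 10 groups of equal size, and points are the 38 genes; on slide 2 the medians go from -0.49 to 0.62 with brightness and most points lie above the line, and on slide 1 the medians stay near 0.

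Among the enzymes that remove superoxide and hydrogen peroxide, all 3 tested genes read higher on slide 2 and differed little on slide 1. Sod1, the copper-zinc superoxide dismutase of the cytosol, read 7.85 and 8.48 on the Meis1-KO arrays and 7.77 and 7.42 on the Meis1-WT arrays. Its groups did not overlap, but the slide 1 difference was 0.082 and the slide 2 difference 1.05. Cat, catalase, read 2.28 and 2.95 against 2.28 and 2.18, so that 3 of its arrays were close together and Meis1-KO array 2 stood above them. Sod2, the manganese enzyme of mitochondria, differed by -0.12 on slide 1 and 0.39 on slide 2. The sign of the average held under the 5 ways of scaling for Sod1 and Cat and turned for Sod2, which was lower under quantile scaling, no scaling and cyclic loess scaling.

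The glutathione peroxidases, which spend glutathione to reduce peroxides, had the largest median slide 2 difference of the 8 role groups, 1.43. Gpx1, the main cytosolic form, read 7.89 and 9.43 in Meis1-KO and 7.88 and 8.00 in Meis1-WT. Gpx4, which reduces lipid peroxides in membranes and guards against ferroptosis, read 4.57 and 6.15 against 4.63 and 4.72. In both genes the 2 control arrays and Meis1-KO array 1 nearly coincided and only Meis1-KO array 2 was high. Gpx3, the secreted form, was dim and read -2.06 and -1.77 against -1.38 and -3.34, which gave opposite differences of -0.67 and 1.57 on the 2 slides. The average difference was 0.72 for Gpx1 (95% interval -0.75 to 2.19) and 0.69 for Gpx4 (-0.80 to 2.17), and it stayed above 0 under the 5 scalings for all 3 genes.

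All 6 peroxiredoxins, thiol enzymes that reduce hydrogen peroxide and are recharged by thioredoxin or, for Prdx6, by glutathione, read higher in Meis1-KO on slide 2 at their brightest probe, by 0.82 (Prdx6) to 1.16 (Prdx4). On slide 1 only Prdx1 (0.15) and Prdx5 (0.034) read higher, by small amounts. Prdx1, a cytosolic form, read 1.43 and 3.02 in Meis1-KO and 1.28 and 1.88 in Meis1-WT. Prdx2, another cytosolic form that is abundant in red cells, read 5.65 and 6.75 against 5.79 and 5.78. Prdx3, the mitochondrial form, read 1.34 and 2.68 against 1.47 and 1.80. In each of these genes Meis1-KO array 2 was the highest of the 4 arrays and Meis1-KO array 1 lay close to the control of its own slide. Prdx4, the form of the endoplasmic reticulum, differed by -0.54 and 1.16, opposite on the 2 slides. Their other probes did not all share this, with slide 2 differences of -0.27 and 0.016 at the other 2 of Prdx2 and 0.21 at the other of Prdx4, and from -0.58 to 1.17 at the other 3 of Prdx6. The average was above 0 for all 6 at the 75th percentile scaling, but was lower for Prdx4 and Prdx6 without scaling and for Prdx6 with cyclic loess. Hbb-b1, the beta globin of red cells, differed on slide 2 as well. It made up 98.5% of the summed linear level of 10 erythroid markers on Meis1-KO array 2. The sum was 247 on Meis1-KO array 2, 29.2 on Meis1-WT array 2, and 101 and 91.0 on slide 1. Without Hbb-b1 the sum of the other 9 was 3.61 and 7.19 on slide 2 and 7.25 and 12.0 on slide 1, lower in Meis1-KO on both. Rhag, a red cell membrane protein, met the criteria higher in Meis1-KO by a log2 difference of 1.72 (limma p 0.00949 unadjusted, 0.983 adjusted). Car1 and Ermap were lower on both slides, with average differences of -1.77 and -1.11. With the slide as a block Car1 met the criteria lower (limma p 0.00382 unadjusted, 0.341 adjusted). Of the 8 tested erythroid markers, 3 were higher and 2 lower in Meis1-KO on both slides. Of the 10, 7 were well above background on all 4 arrays and none was below background on all, and their part in the peroxiredoxin values was not tested.

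Srxn1, sulfiredoxin, which repairs over-oxidized peroxiredoxins and is a known Nrf2 target, gave different answers at its 3 probes. The brightest probe read 0.53 and 0.74 in Meis1-KO and 1.07 and 0.55 in Meis1-WT, with no common direction. Probe A_51_P330125 read -1.08 and 0.07 against -1.11 and -2.45, and A_52_P593200, which shares 13 bases with it, read -2.27 and -0.88 against -2.04 and -3.47. The differences of the overlapping pair were 0.034 and -0.22 on slide 1 and 2.52 and 2.58 on slide 2. They lie 1627 bases upstream of the brightest probe on the same strand. As the 2 overlap, they are not independent measurements.

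The thioredoxin system carries electrons from NADPH to the peroxiredoxins and other thiols, and its genes did not share a direction. Txn1, cytosolic thioredoxin, read 6.90 and 8.24 in Meis1-KO and 6.97 and 7.03 in Meis1-WT, again with 3 arrays alike and Meis1-KO array 2 high. Txnrd1, the cytosolic thioredoxin reductase and an Nrf2 target, read lower, at 5.98 and 5.34 against 6.14 and 5.68. Its differences were -0.17 on slide 1 and -0.34 on slide 2, although it belongs to the brightest group of probes, whose median on slide 2 was 0.62. Txnip, which binds and inhibits thioredoxin and is needed for HSC quiescence in mice, had 2 probes. The brighter one differed by -0.37 and 0.32, and the other was lower on both slides, with differences of -0.33 and -0.45.

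The mitochondrial pair was higher in Meis1-KO on both slides. Txn2, mitochondrial thioredoxin, was higher by 0.16 and 0.51 at its brightest probe and by 0.22 and 0.46 at the other, but its average turned to -0.047 without scaling and to -0.15 without Meis1-KO array 2. Txnrd2, the reductase that serves it, read -0.11 and 0.31 in Meis1-KO and -0.56 and -0.64 in Meis1-WT at its brightest probe, and the groups did not overlap. The difference averaged 0.70 (95% interval -0.36 to 1.76) and was above 0 under all alternatives tried. That probe comes from a cDNA with no RefSeq match, however, and the Txnrd2 probe with a RefSeq accession that could be tested differed by only 0.15 and 0.30.

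Glutathione is made in 2 steps, by glutamate-cysteine ligase (catalytic subunit Gclc, modifier subunit Gclm) and glutathione synthetase (Gss), and is recycled by glutathione reductase (Gsr). Of the 4 genes only Gclm, which was dim, had the same direction on both slides. Gclc differed by -0.31 and 0.74, Gss by -0.19 and 0.18 and Gsr by -0.0073 and 0.55 on slides 1 and 2. A second Gsr probe, which shares 39 bases with the brightest, gave 0.043 and 0.54. Gclm read -3.93 and -3.29 in Meis1-KO, where it was not well above background on either array, and -3.66 and -3.15 in Meis1-WT, where it was on both. It was tested through Meis1-WT alone, so its direction was not free of that filter. With Meis1-KO array 2 raised to that array's lowest signal well above background, the average difference was -0.19. Meis1-KO array 1 kept its own reading, which was also not well above background, so this sets no lower limit on the fold. The direction did not hold in every alternative: the average difference of -0.21 (95% interval -1.37 to 0.96) became 0.34 with normexp background correction, 0.11 without Meis1-KO array 1 and 0.048 without Meis1-WT array 2.

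Glrx, glutaredoxin, which uses glutathione to reduce protein thiols, read 3.69 and 4.21 in Meis1-KO and 3.70 and 2.92 in Meis1-WT. Here Meis1-WT array 2 was the low one and Meis1-KO array 2 the high one, while the slide 1 arrays were alike. Glrx2, the mitochondrial glutaredoxin, differed by -0.13 and 0.12 at its brightest probe. Its other 2 probes differed on slide 2 by -1.47 and 0.23. G6pdx, glucose-6-phosphate dehydrogenase, which makes NADPH in the pentose phosphate pathway, read 1.76 and 1.68 against 1.61 and 1.21. It was higher in Meis1-KO on both slides by 0.15 and 0.47, and lower without scaling. G6pdx lies on the X chromosome, and its slide 2 minus slide 1 difference on the log2 scale was -0.084 in Meis1-KO and -0.40 in Meis1-WT.

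The transcription factor Nrf2 and its inhibitor differed little on slide 1 and read higher in Meis1-KO on slide 2. Nfe2l2, which encodes Nrf2, read 2.52 and 2.61 in Meis1-KO and 2.50 and 2.09 in Meis1-WT at its brightest probe, differences of 0.02 on slide 1 and 0.51 on slide 2, and another probe gave 0.059 and 0.43. A dim Nfe2l2 probe on a cDNA with no RefSeq match read lower in Meis1-KO, with differences of -0.50 and -2.20, but was not well above background on Meis1-KO array 2. With that array at its lowest signal well above background, the slide 2 difference was 0.049. Keap1, the sensor that marks Nrf2 for degradation, was higher by 0.065 and 0.69. Both averages turned negative without scaling.

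The inducible enzymes differed in pattern. Nqo1, a quinone reductase often used as a readout of Nrf2, read 2.15 and 3.41 in Meis1-KO and 2.17 and 2.14 in Meis1-WT. Only Meis1-KO array 2 was high, and the other 3 arrays were nearly equal. Hmox1, heme oxygenase 1, which breaks down heme under stress, read -1.46 and -0.96 against -0.95 and -0.87, lower on both slides and without overlap. Its slide 2 difference was only -0.095, about the size of the gap of 0.083 between the 2 control arrays, and the average of both slides stayed below 0 under the 5 scalings. Hmox2, the constitutive heme oxygenase, differed by 0.052 and 0.26 and turned lower under 3 of the scalings.

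Glutathione transferases, which couple glutathione to electrophiles, were the only role group whose median of the average difference was below 0 at the 75th percentile scaling (-0.12), and it stayed below 0 under the other 4 scalings. Gstm1, a Mu-class transferase, read 2.66 and 1.21 in Meis1-KO and 3.34 and 2.47 in Meis1-WT at its brightest probe. It was lower within each slide, with differences of -0.68 and -1.26, but Meis1-KO array 1 read above Meis1-WT array 2, so the groups overlapped. The other Gstm1 probe gave -0.53 and -1.54. The average difference was -0.97, or 1.96-fold lower (95% interval on the log2 scale -2.52 to 0.58), and both genotypes were lower on slide 2 than on slide 1. Leaving out Meis1-KO array 2 brought it to -0.25, and leaving out Meis1-KO array 1 to -1.69.

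Mgst1, the microsomal transferase of endoplasmic reticulum and mitochondria, read 0.44 and 1.14 in Meis1-KO and 0.45 and -0.47 in Meis1-WT. At this probe the slide 1 arrays were alike and the slide 2 arrays were 1.61 apart, the widest slide 2 difference of the 38 genes. A second Mgst1 probe of similar signal differed by -0.44 and 1.40, so its slide 1 arrays were not alike. Gstp1, the Pi-class transferase, differed by -0.084 and 0.52, and Gsta4, which clears lipid aldehydes, by -0.51 and 0.27. Mgst2, which also makes leukotriene C4, differed by -0.87 and 0.063. In these 3 the sign of the slide 1 difference was negative and that of slide 2 positive.

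The phagocyte NADPH oxidase makes superoxide in neutrophils and macrophages, and its catalytic subunit gp91phox is encoded by Cybb. Cybb read 0.058 and -1.18 on the Meis1-KO arrays and 1.35 and -0.088 on the Meis1-WT arrays. Within each slide the Meis1-KO array was lower, with differences of -1.29 and -1.10, but Meis1-KO array 1 read above Meis1-WT array 2. The average difference was -1.19 with a standard error of 0.68, or 2.28-fold lower, and limma gave an unadjusted p of 0.130 (adjusted 0.983). With the slide as a block the limma p was 0.0302 unadjusted and 0.729 adjusted over all tested probes. The sign held under all alternatives, between -1.91 without Meis1-WT array 2 and -0.48 without Meis1-WT array 1.

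The other Cybb probe gave a like difference on slide 1 (-1.32) and a difference of 0.15 on slide 2, where both arrays read as low (-2.20 and -2.36) as Meis1-KO array 1 (-2.32). The other 2 measured subunits did not share the pattern. Cyba, which encodes the p22phox partner of gp91phox in the membrane, differed by -0.52 and 0.78, and Ncf1, the cytosolic organizer p47phox, by -0.029 and 0.44, with a second Ncf1 probe at -0.055 and -0.95.

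Cybb read lower on slide 2 than on slide 1 in both genotypes. So did 6 of the 11 tested granulocyte and monocyte markers, while 3 read higher on slide 2 in both and 2 differed between the genotypes. Its slide 2 minus slide 1 difference was -1.24 in Meis1-KO and -1.43 in Meis1-WT. S100a9, a calcium-binding protein of neutrophils, read 5.0 and 1.85 in Meis1-KO and 6.06 and 1.31 in Meis1-WT, and so was lower in Meis1-KO on slide 1 and higher on slide 2. The summed linear level of the 13 granulocyte and monocyte markers was 171 and 117 in Meis1-KO and 185 and 61.3 in Meis1-WT. Of the 13, 9 were well above background on all 4 arrays and none was below background on all 4. Mpo made up 69.9% of the sum on Meis1-KO array 2. Without Mpo the other 12 were 54.4 and 35.2 against 91.2 and 14.5, lower in Meis1-KO on slide 1 and higher on slide 2. Among the 13 markers Elane, neutrophil elastase, met the criteria, lower in Meis1-KO by a log2 difference of -1.57 (limma p 0.00940 unadjusted, 0.983 adjusted). Of the 11 tested markers 4 were lower and 2 higher in Meis1-KO on both slides, and the brightest, Mpo, myeloperoxidase, was higher by 0.32 and 0.81. Of 9 macrophage markers, C1qa and Mrc1 were not well above background on any array and 4 were on all, with sums of 2.10 and 1.59 against 1.63 and 1.42. The part of myeloid cells in the Cybb difference was not tested.

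**Figure D3:**
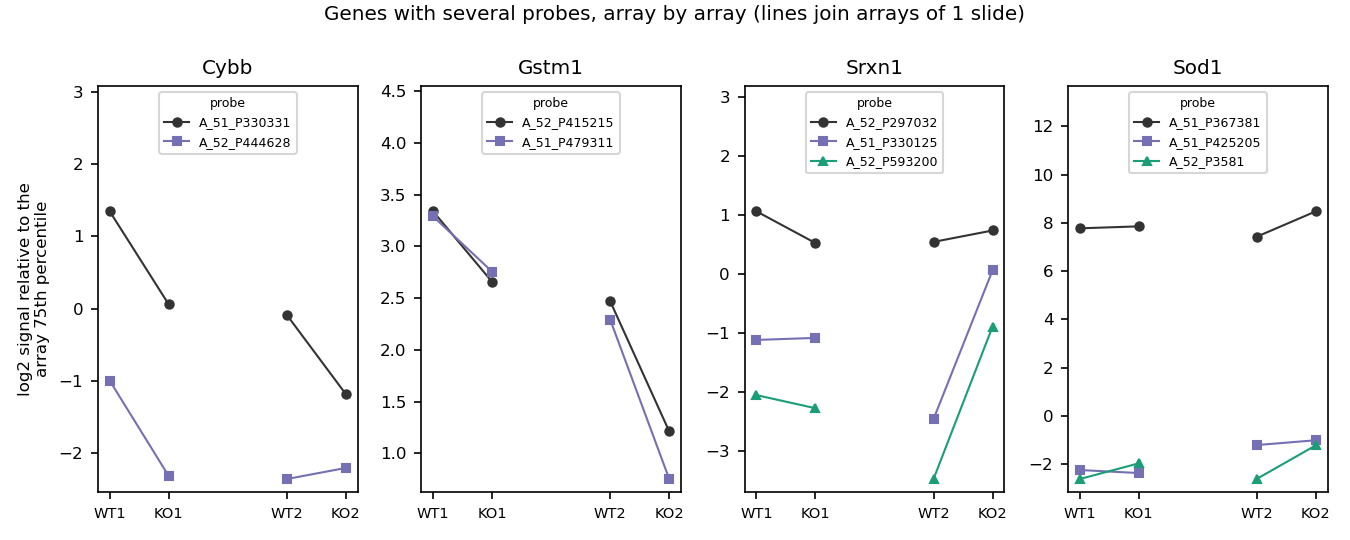
Log2 signal relative to the array's 75th percentile on each array for all tested probes of Cybb, Gstm1, Srxn1 and Sod1, with lines joining the Meis1-WT and Meis1-KO array of a slide. Both Gstm1 probes are lower in Meis1-KO on both slides, the 2 Cybb probes part on slide 2, and 2 of the 3 Srxn1 probes are far higher in Meis1-KO on slide 2 only.

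Sod1 also had probes that disagreed. Probe A_52_P3581, from the cDNA with the apparent retained intron, read -1.97 and -1.22 in Meis1-KO and -2.62 and -2.62 in Meis1-WT. It was higher in Meis1-KO on both slides, by 0.65 and 1.39, without overlap. Another Sod1 probe from the same cDNA differed by -0.13 and 0.20. Over all 62 tested probes of the 38 genes, 0 met the criteria, 19 were higher on both slides (background 30.3%) and 11 lower on both (background 21.0%), and the median difference was -0.077 on slide 1 and 0.46 on slide 2.

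A wider list of 87 genes of the same pathways gave a similar pattern, with a median of -0.14 on slide 1 and 0.42 on slide 2 over 65 tested genes. Of the 65, 1 met the criteria lower and 0 met them higher, both without the block (background 0.600% and 0.136%) and with it (background 1.40% and 0.591%). That gene, Msrb3, a methionine sulfoxide reductase that repairs oxidized methionine, read -3.55 and -5.04 in Meis1-KO and -1.70 and -2.30 in Meis1-WT. It was lower on both slides without overlap and was not well above background on Meis1-KO array 2. The log2 difference was -2.30 (standard error 0.62), with a limma p of 0.00940 unadjusted and 0.983 adjusted, and 0.000907 and 0.164 in the fit that blocks on slide. With Meis1-KO array 2, where Msrb3 was dim, at its lowest signal well above background, the difference was -1.40. Correcting the background by normexp, which damps dim probes, left a difference of only -0.13. Msrb3 also missed the criteria without Meis1-KO array 2 or without either Meis1-WT array, at differences of -1.55 to -2.60, and with quantile, cyclic loess or no scaling.

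By list, the medians of the average difference were 0.41 over 9 tested genes of NADPH supply, 0.39 over 13 further thiol oxidoreductases, 0.20 over 4 other subunits of NADPH oxidases and 0.071 over 7 other genes of glutathione metabolism. They were -0.0048 over 13 other glutathione transferases, -0.19 over 11 other regulators of the Nrf2 pathway and -0.23 over 8 genes that handle iron, heme and metals. All 7 lists read higher on slide 2 than on slide 1 in their medians. The value over all tested probes was 0.082.

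Promoter sequences from RefSeq (GRCm38.p6, 250 bases before to 50 after each start) were available for 34 of the 40 genes. The core of the antioxidant response element bound by Nrf2, searched as TGACNNNGC on both strands, was present in at least 1 promoter of 8 of the 34 genes (23.5%), against 14.0% of all 27025 genes with a promoter. Some genes have more than 1 promoter, and by promoter the match was in 17% of 47 against 12.4% of 32851. The 8 genes were G6pdx, Gclm, Mgst1, Nfe2l2, Prdx1, Sod1, Srxn1 and Txnrd1. TGACAG, a core that Meis proteins are known to bind, was found in 1 of 34 (2.94%), Ncf1, against 21.6% of all genes. The windows of 30 bases around the match are shown for 4 genes known as Nrf2 targets, on the strand of the gene and with the match in capitals. All 4 matches lie on the opposite strand, so the capitals show the reverse complement of the core.

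Txnrd1, chr10:82859103-82859132, plus strand: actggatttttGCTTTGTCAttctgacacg
Srxn1, chr2:152105541-152105570, plus strand: ggcagtgggcaGCTAGGTCAgagtgagaca
Prdx1, chr4:116685455-116685484, plus strand: ccagggaaagcGCTGAGTCAtcccccgtag
Gclm, chr3:122245412-122245441, plus strand: cgctcccgggcGCACCGTCAactctcacga

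The 8 genes that share the match did not share a direction. At the brightest probe Prdx1, Sod1, Nfe2l2 and G6pdx were higher in Meis1-KO on both slides, Txnrd1 and the dim Gclm were lower on both, and Mgst1 and Srxn1 were lower on slide 1 and higher on slide 2. A match of letters is a description of the sequence and not a site that was shown to be bound.

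How the arrays were scaled set the size of the slide 2 difference, and less so that of slide 1. On slide 2 the median of the 38 genes was 0.85 with median scaling, 0.32 with quantile scaling, 0.24 with cyclic loess and -0.15 with no scaling, beside 0.37, 0.038, -0.039 and -0.64 over all tested probes. The genes' median thus lay above that of all probes by 0.28 to 0.48 on slide 2, and on slide 1 below it by values from -0.13 to -0.087. Median scaling and no scaling differ from the 75th percentile scaling by 1 value per array and so leave this distance as it was, and of the 5 only quantile and cyclic loess scaling could change it. Of the 38 genes, 14 were higher and 8 lower in Meis1-KO on average under all 5 scalings, and 16 had a sign that depended on the scaling. For 10 of the 16 the sign turned only under median scaling or no scaling, which moved every gene alike by 0.086 and -0.38, and 6 differed in sign among the 75th percentile, quantile and cyclic loess scalings. The 8 lower under all 5 were Cybb, Gstm1, Mgst2, Hmox1, Txnrd1, Gclm, Srxn1 and Gsta4, each at its brightest probe. The other 2 Srxn1 probes had positive average differences of 1.28 and 1.18 at the 75th percentile scaling, and the sign of Gclm turned in alternatives other than scaling.

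**Figure D4:**
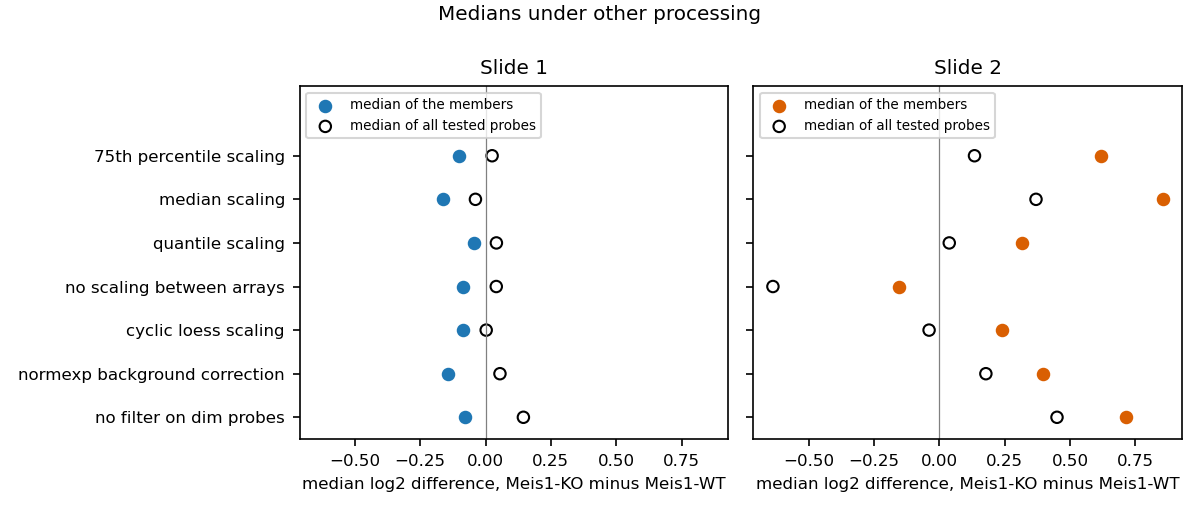
Median log2 difference Meis1-KO minus Meis1-WT on each slide for the antioxidant and redox genes (filled circles) and for all tested probes (open circles) under 7 ways of processing. The filled circle lies left of the open one on slide 1 and right of it on slide 2 in each of the 7, where median and no scaling leave the distance of the 75th percentile scaling by construction.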

How the data were processed

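RNA from pooled LSK cells (10 ng per pool) was labeled with Cy3 and hybridized to 4 one-color arrays, 2 per genotype. The authors deposited the spot intensities of Feature Extraction 9.5.3.1, per the file headers, with background subtracted and trends within an array corrected but no scaling between arrays, and a series table with these values rounded. Samples were grouped by their titles, and the shared replicate number is the slide that the file headers record.

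Spots for controls or marked as outliers were dropped, repeated spots averaged, and log2 values set relative to the 75th percentile of their array. limma 3.58.1 (R 4.3.3) was fitted to genotype alone over all tested probes and checked on simulated arrays. Same-numbered arrays deviated together from the means of their genotypes (correlation 0.266 across probes), so within-slide values and a fit blocked on slide stand beside the main one. Alternatives were other scalings, background correction, filters, tests, the series table, all probes of a gene, and each array left out in turn.

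A p is given only for genes with one under 0.05 in either fit, and related genes are named only where they met the criteria. Values on every array are given for Cybb, Gstm1 and Gclm by rule, and for other genes chosen after their values were seen. The members and gene lists were chosen with earlier results of these data known. The number of arrays and the signal over background limit precision. Exon and UTR annotations and protein sequences were not used here.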

Additional observations from a re-analysis of the deposited data

How the results depend on the processing

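The number of antioxidant and redox genes that met the criteria was 0 in each direction under all 17 alternatives, including the replicate block. The block left the median difference at 0.28, lowered the p of Cybb from 0.130 to 0.0302 in limma, and raised the count over all tested probes from 162 to 437. The median over the genes was 0.13 with quantile scaling, 0.08 with cyclic loess (chosen after seeing the data), 0.17 with normexp and -0.093 with no scaling, where the median of all probes was -0.30. Leaving out 1 array gave medians from -0.11 without Meis1-KO array 2, the only omission that made the median negative, to 0.62 without Meis1-KO array 1. Of 38 genes, 10 kept their sign in each alternative. Among related genes, 1 met the criteria (Msrb3), and 0 did with quantile scaling, no scaling, cyclic loess, normexp, the filter on all 4 arrays (which removes Msrb3), the methods' t-test or an intensity trend, and between 0 and 6 did when 1 array was left out. The cause was not tested. Arrays at 49.2% to 57.4% of spots above background limit what dim genes such as Gclm and Gpx3 can show.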
